A study of Mus musculus with 8 samples.

Results

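The genes described here are 40 mouse genes of the p53 pathway and of the machinery of apoptosis, chosen by name and measured in cultured satellite cells with forced expression of Hoxa9. They were found through the gene names of the non-control probes of an Agilent mouse 8x60K array. All 40 were on the array, with 55 of its 55681 probes, and all 40 were among the 27109 genes tested. They fall into 3 regulators of p53 activity (Trp53 itself, Mdm2 and Mdm4), 17 p53 targets, 12 members of the Bcl2 family, 4 caspases or parts of the apoptosome, and 4 inhibitors of caspases.

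The cells were satellite cells, which are muscle stem cells, isolated from the hindlimbs. The mice were C57BL/6J, 3 to 4 months old. The cells were sorted, kept overnight in growth medium and infected with lentivirus. The 4 control samples carried a genomically integrated eGFP cDNA and the 4 Hoxa9 samples carried Hoxa9 cDNA together with eGFP cDNA. In both groups the cells were sorted again for eGFP at day 5 after infection, so every sample holds cultured, infected cells sorted as eGFP-positive, and no group of uninfected cells is compared here. The promoter driving the cDNAs and the number of animals behind each sample are not given in the sources used here, so p-values measure only the spread between these samples. Each sample was hybridised to 1 array in 1 colour. Levels below are log2 signals relative to the 75th percentile of the same array, and a difference is the mean of the 4 Hoxa9 arrays minus the mean of the 4 eGFP arrays, so 1 unit is a 2-fold change. A gene is called where limma's adjusted p (Benjamini-Hochberg over all 27109 genes) was under 0.05.

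The p53 protein, encoded by Trp53, is a transcription factor held low by Mdm2 and Mdm4 and stabilised after DNA damage and other stress. Its targets slow the cell cycle, repair DNA, feed back on p53 or prepare the cell for death. In the mitochondrial pathway BH3-only proteins of the Bcl2 family release Bax and Bak1, which open the outer membrane and let out cytochrome c. Cytochrome c joins Apaf1 and activates caspase-9, while death receptors such as Fas act through caspase-8. Much of p53 control acts on the protein, which these arrays do not measure.

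The Hoxa9 transcript was far higher in the Hoxa9 samples, at 5.31, 5.44, 5.48 and 5.81 against -0.98, -0.71, -0.14 and -0.04 in the eGFP samples. Its difference was 5.98 (SE 0.24, adjusted p = 1.71e-05), and it was 2.12 when all Hoxa9 probes were averaged. The arrays lay on 3 slides, each of which held both groups. Slide 1 held eGFP arrays 1 and 2 and Hoxa9 array 4, slide 2 eGFP array 3 and Hoxa9 arrays 1 and 2. Slide 3 held eGFP array 4 and Hoxa9 array 3. Differences within a slide thus compare arrays of unlike replicate numbers. Pearson correlations over genes were 0.975 to 0.992 within eGFP, 0.952 to 0.986 within Hoxa9 and 0.931 to 0.969 between groups. The share of non-control spots well above background was 69.6% to 77.5% and no spot was saturated. Satellite cell and myoblast markers were present and lower in the Hoxa9 samples: 5 of 7 fell, including Pax7 (-1.30, adjusted p = 0.00401), and their mean level was 3.47 to 3.78 in eGFP and 2.28 to 2.65 in Hoxa9 arrays. Of 15 cell cycle genes 14 fell, with a median difference of -1.80 and mean levels of 2.71 to 3.05 against 0.74 to 1.72. Differentiated muscle genes (0 of 5 called, also 0 at an unadjusted p under 0.05 in limma; 1 higher and 2 lower with the replicate block) had mean levels of 4.43 to 5.74 in eGFP and 4.58 to 5.72 in Hoxa9 arrays. In both groups replicates 1 and 2 were lower than 3 and 4, at 4.7, 4.4, 5.6 and 5.7 (eGFP) and 4.6, 4.7, 5.5 and 5.7 (Hoxa9). The 6 fibroblast markers split the same way, at -0.7, -0.9, 0.5 and 0.1 (eGFP) and -0.8, -0.7, 1.0 and 0.9 (Hoxa9). Among markers of other cells, 1 of 6 fibroblast genes rose (Ly6a, 4.55), 1 of 5 smooth muscle genes rose and 1 fell, and limma called 0 of 3 endothelial and 0 of 4 leukocyte genes (1 endothelial gene lower and 0 leukocyte genes at an unadjusted p under 0.05). With the replicate block 1 endothelial and 1 fibroblast gene were called lower and 2 smooth muscle genes higher, and with the slide block 3 of the 7 satellite cell and myoblast markers stayed lower. Tek, Emcn and Ptprc were not well above background on enough arrays to be tested. The part of these shifts in the results below was not tested, and in bulk samples fewer cells of a type and less RNA per cell cannot be told apart.

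Of the 40 genes, 13 were called, 7 higher and 6 lower with Hoxa9. That is 32.5%, against 15.2% of all genes tested (7.83% higher and 7.42% lower) and 19.2% of the 16358 genes named through a RefSeq transcript. The median difference over the 40 genes was 0.09, and over all genes -0.07. Within slides 1, 2 and 3 the median of the 40 was -0.14, 0.36 and 0.07. The 2 groups did not overlap for 17 of the 40 genes, against 23.6% of all genes, and 17 had an unadjusted p under 0.05, against 27.5%. With the replicate block 12 of the 40 were called (16.4% of all genes) and with the slide block 9 (11.4% of all genes). The rises were Fas, Perp, Btg2, Gadd45a, Bbc3, Birc3 and Cflar, and the falls were Trp53, Bid, Pmaip1, Cycs, Bcl2 and Bak1. Changes of at least 2-fold were limited to Fas, Perp and Btg2 upward and Bid and Trp53 downward, which is 5 of 40, and 9.16% of all genes were called and changed that much. The calls of Trp53, Fas, Btg2, Perp and Cycs held in all 12 processing alternatives (the 2-fold minimum apart) and with each of the 8 arrays left out. Bak1, Bbc3, Bcl2 and Pmaip1, with adjusted p-values between 0.0277 and 0.0487, lost theirs in several.

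**Figure D1:**
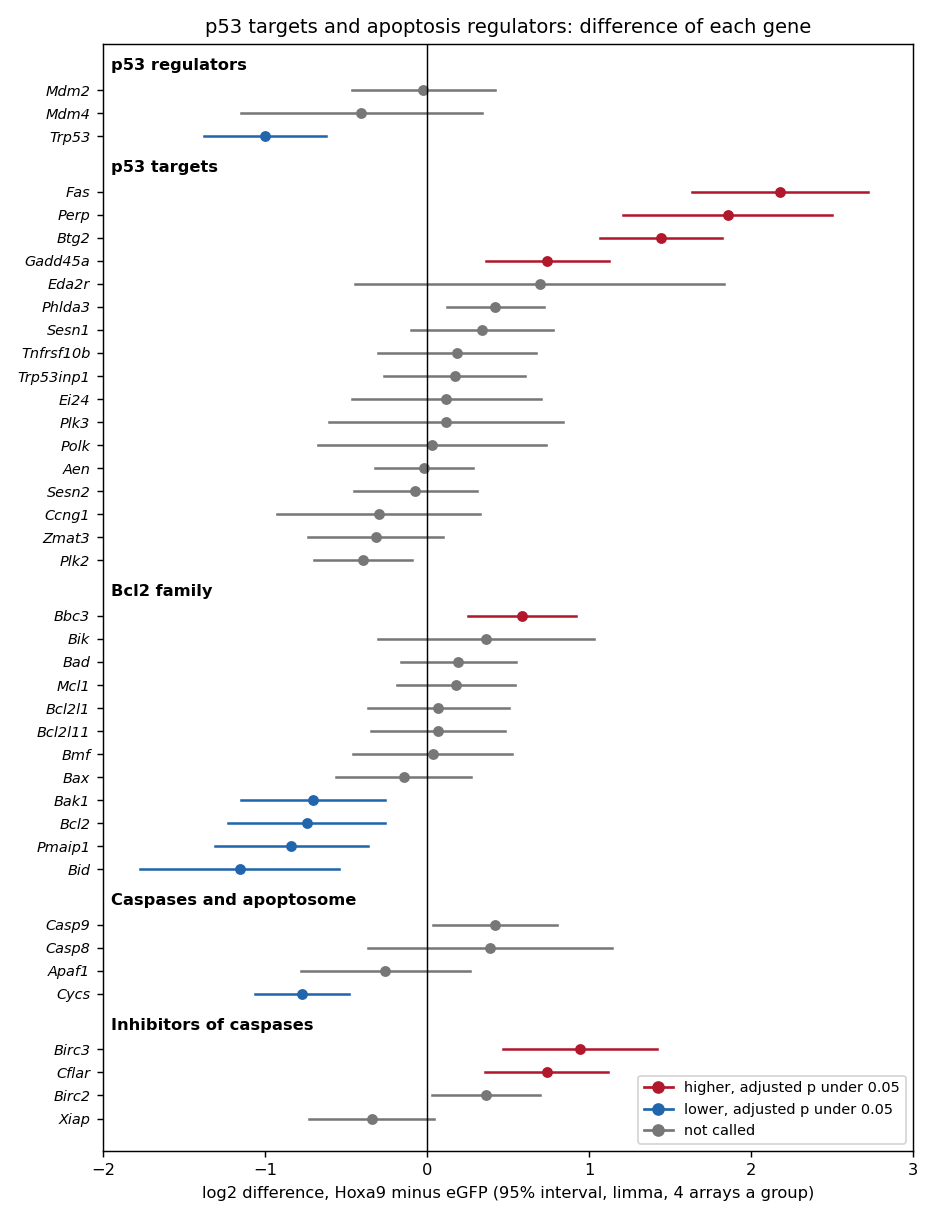
Difference of each of the 40 genes on the horizontal axis (log2, Hoxa9 minus eGFP, with 95% confidence intervals from limma, 4 arrays a group), grouped by role. Red marks the 7 genes called higher, blue the 6 called lower and grey the 27 not called; the p53 targets hold 4 of the rises and the Bcl2 family 4 of the falls.

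Transcripts of the gene for p53 itself fell to about the 75th percentile of the array. Trp53 read 0.76, 1.11, 1.19 and 1.19 in the eGFP arrays and 0.09, 0.24, 0.12 and -0.20 in the Hoxa9 arrays. Every Hoxa9 array lay below every eGFP array. The difference was -1.0 (SE 0.16, adjusted p = 0.00451), a 2.0-fold fall, and it was -1.14, -1.03 and -1.08 within slides 1, 2 and 3. The probe lies on chromosome 11 (chr11:69404204-69404263, mm9, plus strand) and is printed because the fall of Trp53 rests on it alone.

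Trp53 probe: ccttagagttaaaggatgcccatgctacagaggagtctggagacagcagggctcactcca

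The ubiquitin ligase Mdm2, which degrades p53 and is itself a p53 target, did not pass the test. Its levels were 5.89, 5.78, 5.79 and 5.71 with eGFP and 6.12, 5.91, 5.28 and 5.76 with Hoxa9. The Hoxa9 arrays thus spanned the eGFP range on both sides, with an SD of 0.36 against 0.08. The difference was -0.02 with a 95% interval of -0.46 to 0.42, and 0.15 after quantile normalization. Mdm4, its partner that masks the activation domain of p53, gave -0.41 (interval -1.15 to 0.34) and was spread widely among the eGFP arrays, from -0.14 to 1.33.

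Of the 17 p53 targets grouped here, 4 rose and 0 fell, against 7.83% and 7.42% of all genes. At an unadjusted p under 0.05 in limma 5 were higher and 1 lower, against 3597 and 3859 of all 27109 genes. The replicate block and the slide block in limma also gave 4 rises and 0 falls. This count leaves out Mdm2 and any p53 targets placed in the other groups. Among these are Bbc3, which rose, Pmaip1, which fell, and Bax, which was not called. The median difference of the 17 was 0.17 against -0.07 over all genes. Within slides 1, 2 and 3 the median of the 17 was -0.24, 0.51 and 0.14, so its sign differed between slides. The genes that rose differ in role: a death receptor, a membrane protein of cell contacts, an antiproliferative gene and a stress sensor.

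Fas, the death receptor that recruits Fadd and caspase-8, had the largest difference of the 40 genes. It read -2.82, -2.60, -2.10 and -2.47 in eGFP arrays and -0.78, -0.32, -0.34 and 0.16 in Hoxa9 arrays. The gap between the groups exceeded the range within either of them. The difference was 2.18 (SE 0.24, adjusted p = 0.000642), or 4.53-fold, and 2.87, 1.55 and 2.13 within the slides. Perp, a tetraspan membrane protein of desmosomes that is induced by p53 in apoptosis, rose from -2.89, -3.48, -2.64 and -3.68 to -0.85, -1.25, -1.48 and -1.69. Its lowest Hoxa9 array stood above its highest eGFP array, and the difference was 1.85 (SE 0.28, adjusted p = 0.00312).

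Btg2, an antiproliferative factor that acts on mRNA deadenylation, was tightly grouped in the controls. The eGFP arrays read 0.40, 0.18, 0.23 and 0.23, and the Hoxa9 arrays 2.01, 1.76, 1.38 and 1.65. With a difference of 1.44 (SE 0.16, adjusted p = 0.000796) the rise was 2.72-fold. Gadd45a, a small stress protein that binds cell cycle and repair factors, showed a smaller rise. It went from 3.27, 3.31, 3.43 and 3.80 to 4.0, 4.34, 4.29 and 4.17. The 2 groups were close at eGFP array 4 and Hoxa9 array 1 but did not overlap, and the difference was 0.74 (SE 0.16, adjusted p = 0.0182). Its adjusted p was 0.0504 without eGFP array 1, 0.062 without eGFP array 2 and 0.0547 without Hoxa9 array 3.

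Phlda3 and Plk2 stood apart between groups without being called. Phlda3, which competes with Akt for membrane lipids, read 6.27 to 6.54 with eGFP and 6.68 to 6.89 with Hoxa9; its difference of 0.42 had an adjusted p of 0.0667, and it was called in 4 of 12 alternatives, at 0.59 after quantile normalization and 0.53 after normexp. Plk2, a polo-like kinase, read 1.2 to 1.5 against 0.81 to 1.05, a difference of -0.40 (adjusted p = 0.084). The other 11 targets overlapped between groups. Cyclin G1 (Ccng1) gave -0.30 and Zmat3, an RNA-binding protein, -0.32. Among the sestrins, which restrain mTORC1, Sesn1 gave 0.34 and Sesn2 -0.07, and Sesn1 was called in the normexp alternative alone. For the death receptor Tnfrsf10b the difference was 0.18, for Trp53inp1 0.17, for the kinase Plk3 0.11, for Ei24 0.12, for the DNA polymerase Polk 0.03 and for the exonuclease Aen -0.02. Sesn2 and Aen turned positive after quantile normalization. Eda2r, the receptor of ectodysplasin A2, varied more than any other of the 40 genes among eGFP arrays (SD 0.93), at -2.35, -2.02, -0.62 and -0.57 in eGFP arrays and -1.0, -1.38, -0.52 and 0.14 in Hoxa9 arrays. Its difference of 0.70 had an interval of -0.44 to 1.83, and both groups were lower in replicates 1 and 2 than in 3 and 4.

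**Figure D2:**
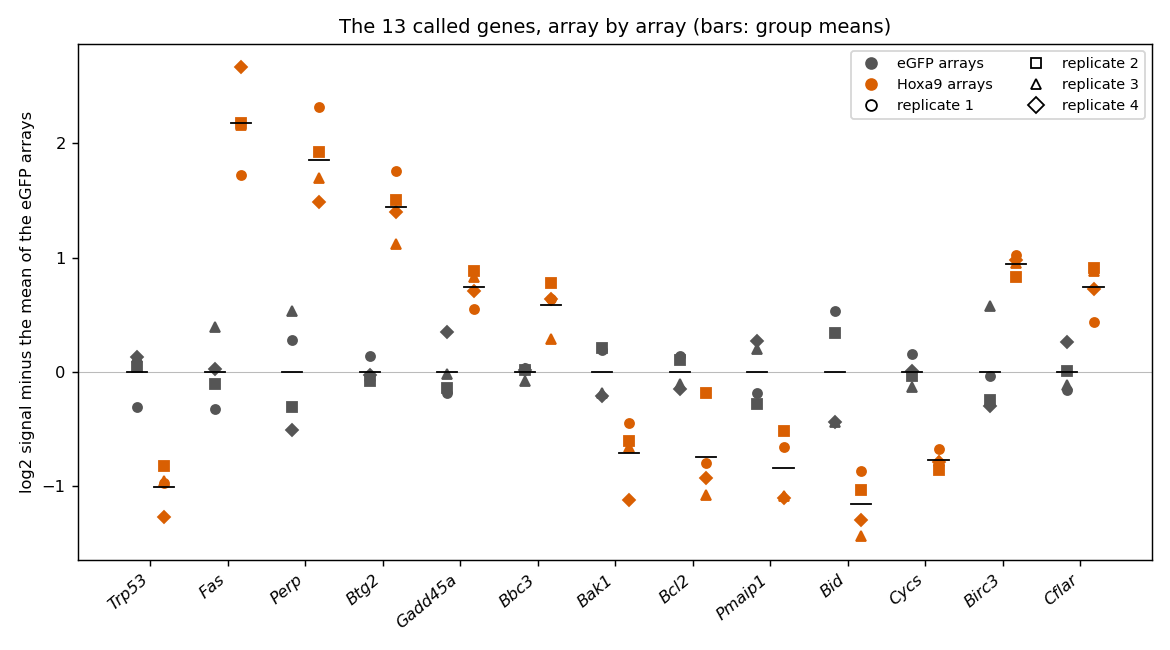
The 13 called genes on the horizontal axis and, on the vertical axis, each array's log2 signal minus the mean of the 4 eGFP arrays, in grey for eGFP and orange for Hoxa9, with symbols by replicate number and bars at the group means. For every gene shown the orange points lie entirely above or entirely below the grey ones; Bcl2 comes closest to overlapping, at Hoxa9 array 2 and eGFP array 4, whose levels before the mean was subtracted were -0.32 and -0.29.

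The proximal promoters were searched for the p53 consensus decamer, the repeated unit that p53 binds in pairs, on both strands. The windows run from 250 bases before to 50 bases after a RefSeq start (GRCm38.p6) and were found for 34 of the 40 genes. A gene with several starts had several windows, and a match in any of them counted. The number of windows per gene was not equalised between the sets. The decamer was in 11 of these 34 genes (32.4%) against 9.55% of 27025 genes with a window. Among p53 targets it was in 6 of 13 (46.2%), and there in 1 of the 3 called genes and 5 of the 10 not called. The Bcl2 family had it in 2 of 10 genes. A match describes the letters only, and functional sites often lie outside this window. Stretches of 60 bases before the start are printed for the called Gadd45a and Trp53 and, for contrast, for genes that did not pass the test, with the decamer in capitals, each 5′ to 3′ along the gene's strand.

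Gadd45a, chr6:67037413-67037472, minus, rose: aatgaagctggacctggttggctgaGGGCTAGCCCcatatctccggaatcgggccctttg
Trp53, chr11:69580259-69580318, plus, fell: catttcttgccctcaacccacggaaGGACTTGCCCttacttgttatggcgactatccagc
Ccng1, chr11:40755437-40755496, minus, not called: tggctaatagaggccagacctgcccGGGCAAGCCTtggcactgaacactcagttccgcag
Mdm2, chr10:117710910-117710969, minus, not called: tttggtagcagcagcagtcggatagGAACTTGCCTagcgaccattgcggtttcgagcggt
Sesn1, chr10:41887241-41887300, plus, not called: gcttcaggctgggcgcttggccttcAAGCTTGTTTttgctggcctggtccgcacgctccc
Bax, chr7:45467065-45467124, minus, not called: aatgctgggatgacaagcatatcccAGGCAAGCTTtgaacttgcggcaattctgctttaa

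Of the 12 Bcl2 family genes, 1 rose and 4 fell, against 7.83% and 7.42% of all genes, and the median difference was 0.05. Within slides 1, 2 and 3 the median of the 12 was -0.20, -0.02 and -0.24. The slide block left 0 rises and 2 falls, against 11.4% of all genes called in either direction. In the main limma fit 4 genes fell and 1 rose at an unadjusted p under 0.05, against 3859 and 3597 of all 27109 genes. The called genes are 4 promoters of death (Bid, Pmaip1, Bak1 and Bbc3) and, among the protective members, Bcl2, whose adjusted p was 0.0811 with the slide block.

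Bid, a BH3-only protein that caspase-8 cleaves to link death receptors to mitochondria, fell most. It read 2.82, 2.63, 1.85 and 1.85 with eGFP and 1.42, 1.26, 0.86 and 0.99 with Hoxa9. Replicates 1 and 2 were higher than 3 and 4 in both groups, and the groups still did not overlap. The difference was -1.16 (SE 0.27, adjusted p = 0.0214), with -1.73, -0.52 and -1.0 within the slides. Between arrays of the same replicate number it was -1.40, -1.37, -1.0 and -0.86. Its adjusted p was 0.0662 without eGFP array 2, 0.0608 without Hoxa9 array 3 and 0.0576 without Hoxa9 array 4.

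Pmaip1 (Noxa), a BH3-only p53 target that neutralises Mcl1, was lower with Hoxa9. The eGFP arrays read 3.53, 3.43, 3.91 and 3.98 and the Hoxa9 arrays 3.06, 3.20, 2.63 and 2.61. Its difference was -0.84 (SE 0.21, adjusted p = 0.0277) and was -0.47, -0.23, -1.28 and -1.37 in the 4 numbered experiments. With the replicate block the adjusted p was 0.085, and it was 0.0759 and 0.0704 without eGFP arrays 3 and 4 and 0.0763 and 0.0704 without Hoxa9 arrays 3 and 4. Bbc3 (Puma), another BH3-only p53 target, went the opposite way, from 2.43, 2.42, 2.32 and 2.42 to 3.03, 3.18, 2.68 and 3.03. The difference was 0.58 (SE 0.15, adjusted p = 0.0293), and the call was lost with the slide block (adjusted p = 0.0744) and when any array other than Hoxa9 array 3 was left out (0.0571 to 0.0816).

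Bak1, a pore-forming effector, read 3.83, 3.84, 3.45 and 3.43 against 3.19, 3.03, 2.98 and 2.52. The difference of -0.71 (SE 0.19, adjusted p = 0.0426) lost its call whichever of the 8 arrays was left out (adjusted p = 0.0524 to 0.123). Bcl2, the founding inhibitor of mitochondrial death, read 0.00, -0.03, -0.24 and -0.29 against -0.93, -0.32, -1.21 and -1.06. Its difference of -0.74 (SE 0.21, adjusted p = 0.0487) lost its call when any array other than Hoxa9 array 2 was left out (adjusted p = 0.0751 to 0.128). Every Hoxa9 array lay below every eGFP array for both genes, so any pairing of the arrays gives the same direction. The Bcl2 probe (chr1:108608970-108609029, mm9, minus strand) is printed because the fall of Bcl2 rests on it alone.

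Bcl2 probe: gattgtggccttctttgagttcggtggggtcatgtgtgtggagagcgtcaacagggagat

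The 7 remaining family members were not called, and their groups overlapped. Bax, the other pore-forming effector and a p53 target, read 4.98, 5.06, 5.36 and 5.34 with eGFP and 4.94, 5.40, 5.09 and 4.74 with Hoxa9. Its difference was -0.14 with an interval of -0.56 to 0.27, and 0.02 after quantile normalization. Of the protective members, Bcl2l1 (Bcl-x) gave 0.07 (-0.37 to 0.50) and Mcl1 0.18 (-0.19 to 0.55). Among the BH3-only genes Bad gave 0.19, Bmf 0.03, Bcl2l11 (Bim) 0.07 and Bik 0.36. Bik differed in sign between experiments, at -0.15 and -0.43 in 1 and 2 and 1.16 and 0.87 in 3 and 4. Over the whole list, 23 of the 27 genes not called had 95% intervals within 1 log2 unit of 0, so changes beyond 2-fold lay outside their intervals.

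**Figure D3:**
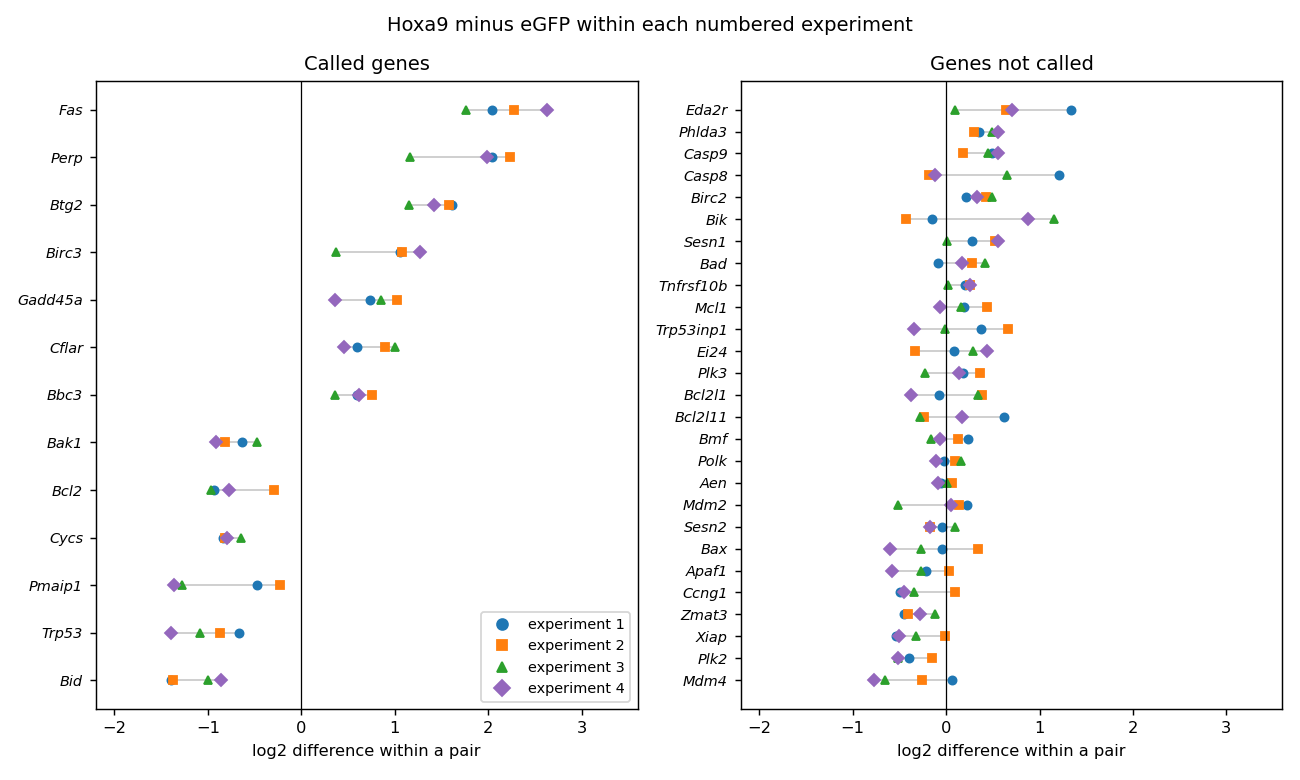
Difference between the Hoxa9 and the eGFP array of the same experiment number (horizontal axis, log2), for the 13 called genes (left) and the 27 others (right), with 1 symbol per experiment. All 4 symbols lie on the same side of 0 for each called gene, as they must where the groups do not overlap. Pmaip1 ranges from -1.37 to -0.23 and Bik on the right from -0.43 to 1.16.

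Among the caspases and the apoptosome, 1 of 4 genes fell and 0 rose, against 7.42% and 7.83% of all genes. In this group 1 gene was higher and 1 lower at an unadjusted p under 0.05 in limma, against 3597 and 3859 of all 27109 genes. Normexp called 1 gene of the group higher. Cycs, the somatic cytochrome c of the respiratory chain that also assembles the apoptosome, was tightly grouped in both conditions. The eGFP arrays read 6.73, 6.54, 6.44 and 6.58 and the Hoxa9 arrays 5.89, 5.72, 5.79 and 5.79. The difference was -0.77 (SE 0.13, adjusted p = 0.00464), a 1.71-fold fall, and -0.84, -0.64 and -0.79 within the slides. Casp9, the initiator caspase of the apoptosome, read 1.43 to 1.85 with eGFP and 1.94 to 2.34 with Hoxa9. These ranges did not overlap, but its difference of 0.42 had an adjusted p of 0.142 (0.0217 after normexp). Apaf1, the scaffold of the apoptosome, gave -0.26 and Casp8, the initiator of death receptor signalling, 0.39. Casp8 varied among eGFP arrays from -0.87 to 0.66, and its interval ran from -0.36 to 1.14.

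Inhibitors of caspases rose where they were called, in 2 of 4 genes, against 7.83% of all genes called higher. At an unadjusted p under 0.05 in limma 3 were higher and 0 lower, against 3597 and 3859 of all 27109 genes. Birc3 (cIAP2), a ubiquitin ligase of NF-kappaB signalling, read -3.52, -3.72, -2.90 and -3.77 with eGFP and -2.46, -2.65, -2.53 and -2.50 with Hoxa9. The Hoxa9 arrays were close together and all above the highest eGFP array, with a difference of 0.94 (SE 0.21, adjusted p = 0.017). The adjusted p was 0.0539 with the slide block, 0.0566 without eGFP array 2 and 0.051 without Hoxa9 array 1. Its paralogue Birc2 (cIAP1) read -0.96 to -0.53 against -0.51 to -0.32, a difference of 0.36 (adjusted p = 0.145). Xiap, which binds caspases directly, gave -0.34 with an interval of -0.73 to 0.04.

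Cflar (c-FLIP), which resembles caspase-8 without its activity and blocks it at death receptors, rose on 1 of its 4 probes. That probe, the brightest, lies at chr1:58770546-58770605 (mm9) and read 0.41, 0.57, 0.45 and 0.82 with eGFP and 1.0, 1.47, 1.45 and 1.28 with Hoxa9. Its difference was 0.74 (SE 0.17, adjusted p = 0.0189), while the other 3 probes, at chr1:58789994-58790053, chr1:58810660-58810719 and further along the gene, gave 0.08, -0.0031 and 0.05. The brightest probe was designed on an Ensembl transcript and the others on RefSeq transcripts. The probe at chr1:58810660-58810719 is printed as an example of those without a called difference, and no annotation was used to place any of the 4 within the transcripts.

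Cflar probe, chr1:58810660-58810719, plus: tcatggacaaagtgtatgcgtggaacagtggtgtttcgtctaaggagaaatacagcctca

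Tested directly, each of the other 3 Cflar probes differed from the brightest in its response by -0.74 to -0.66, with adjusted p-values of 0.27 to 0.392 over 13662 probe pairs (unadjusted 0.012 to 0.0306). After normexp 1 of these pairs was called, at -0.75 (adjusted p = 0.0442). The mean of the 4 probes gave 0.22 (adjusted p = 0.362), and the adjusted p of the brightest probe was 0.0524, 0.0553 and 0.0551 without eGFP array 1, 2 or 3 and 0.0575 without Hoxa9 array 3.

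Of the 40 genes 12 had more than 1 probe, which allowed 15 probe pairs to be compared. None of the 15 pairs differed after adjustment by limma in the main fit, against 0.812% of all pairs called. At an unadjusted p under 0.05 in limma there were 3 pairs, all of Cflar and all sharing its brightest probe. The share of all pairs at that unadjusted threshold was not counted. In a fit of every kept probe, in which 13.5% of probes were called, the 3 Cycs probes gave -0.77, -0.71 and -0.98, of which the last, with an SE of 0.48, was not called. The second Birc3 probe gave 0.41 (SE 0.23). Opposite signs were seen for 5 pairs, none of them with a called difference on the second probe.

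**Figure D4:**
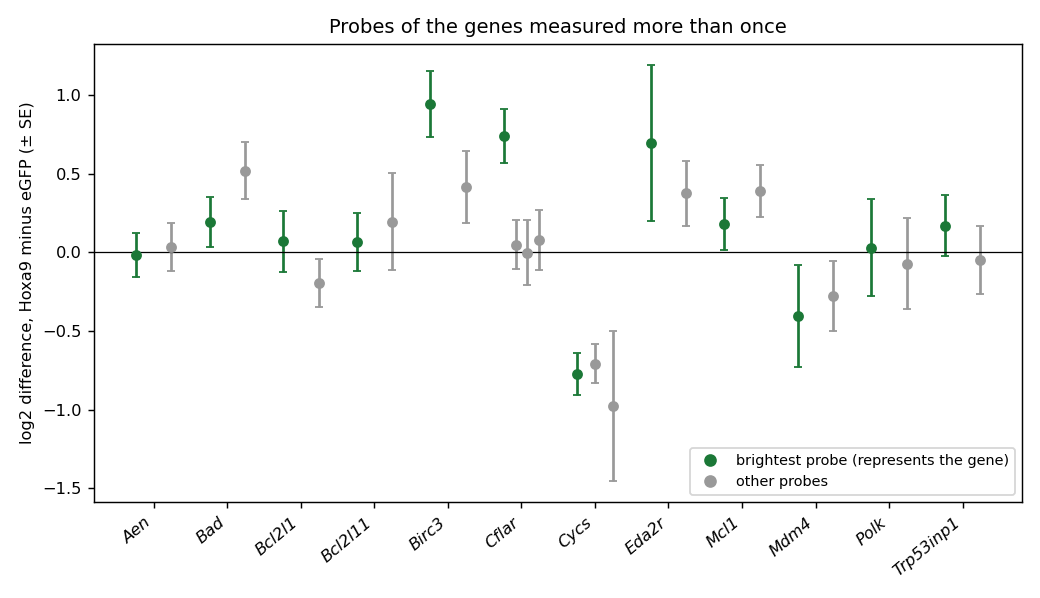
Log2 difference (Hoxa9 minus eGFP, ± SE from limma, 4 arrays a group) of each probe of the 12 genes measured by more than 1 probe, with the brightest probe in green and the others in grey. The 3 Cycs probes all lie below 0, and the green Cflar probe at 0.74 lies apart from its 3 grey probes near 0.

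Other genes of these pathways were taken from lists chosen with the members. Over all genes tested 15.2% were called, 7.83% higher and 7.42% lower. Of 31 further p53 pathway genes 2 rose and 4 fell (19.4%), with a median of -0.12. At an unadjusted p under 0.05 in limma 4 were higher and 7 lower, against 27.5% of all genes in either direction. Cdkn1a (p21), the p53 target that arrests the cell cycle, gave 0.36 (SE 0.15, adjusted p = 0.144), with a level of 5.15 ± 0.12 in eGFP and 5.52 ± 0.18 in Hoxa9 arrays (SD, n = 4). Its groups did not overlap, and it was called in 1 of 12 alternatives, quantile normalization (limma, adjusted p = 0.0223). The 2 falls of lowest adjusted p were Ddit4 (Redd1), an inhibitor of mTORC1, at -1.99 (adjusted p = 0.000138), and Trp53i11 at -2.19 (adjusted p = 0.00222). Of 8 further Bcl2 family genes Bcl2l2 (Bcl-w) rose by 0.53 (adjusted p = 0.0276; 0.0533 with the replicate block and 0.0875 with the slide block) and Bok fell by 1.12 on the log2 scale (adjusted p = 0.0295; 0.0823 with the slide block). In death receptor signalling 1 of 9 genes fell, the receptor Tnfrsf25 (-1.79, adjusted p = 0.00666). None of 11 further caspases and effectors was called by limma, with 1 higher and 1 lower at an unadjusted p under 0.05. Of 7 further inhibitors and their antagonists 2 fell: Birc5 (survivin), which also serves in mitosis, at -1.47 (adjusted p = 0.00488), and Septin4 at -1.19 (adjusted p = 0.0273; 0.0741 with the slide block).

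Spread among samples was similar in the list and over all genes. The median SD of the 40 genes was 0.23 in eGFP and 0.27 in Hoxa9 arrays, against 0.29 and 0.30 over all genes. It was larger in Hoxa9 than in eGFP arrays for 22 of the 40. All 40 genes were well above background on all 8 arrays, so no level here is a bound.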

How the data were processed

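RNA of 8 samples (4 eGFP, 4 Hoxa9; 0.1 ug each) was labelled with Cy3 and hybridised to Agilent mouse 8x60K arrays. The authors' intensity values came from Agilent Feature Extraction 10.7.3.1, per the file headers, with background subtracted and no scaling between arrays. Probe positions are on mm9, for which no annotation was used here. In a deposited score table of processed values, 86.1% to 87.3% of cells had lost their decimal point. Once this was restored after the leading digit, column medians were -3.38, -3.24, -3.12 and -3.09 (eGFP) and -3.25, -3.27, -3.23 and -2.96 (Hoxa9). The table holds log2 signals shifted by array, not centred by gene, and was used in an alternative alone.

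For the main values, log2 of the processed signal had the 75th percentile of its array subtracted. Control spots and outlier-marked spots were left out (180 of 55681 probes, 0 of the 55 used here) and repeats averaged. A probe was kept if it was well above background on 4 or more of 8 arrays, and a gene took its kept probe of highest mean. Names were updated through RefSeq accessions of GRCm38 (27542 probes matched, 1705 renamed). The two-sided test was eBayes after lmFit in limma 3.58.1 (R 4.3.3), and p-values were adjusted by Benjamini-Hochberg across all genes, with a threshold of 0.05 and with the script tested on simulated data. The number of arrays limits the precision. The members, lists and tests were chosen with earlier results of these data known. All 40 members are named, and of other genes Hoxa9, Cdkn1a and up to 2 called genes of lowest adjusted p per pathway list; the markers Pax7 and Ly6a were named after their values were seen.

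The titles number the experiments 1 to 4 in both groups. Deviations from group means correlated at 0.143, 0.228, 0.129 and 0.186 in same-numbered pairs, all above the limit of 0.1, and equal numbers were therefore treated as pairs in the replicate block, an alternative. Among unlike numbers 2 pairs exceeded 0.1 too, Hoxa9 3 with eGFP 4 at 0.188 and Hoxa9 4 with eGFP 3 at 0.137. The correlations thus do not separate numbers 3 and 4. Further alternatives were a slide block, array weights, a trended robust prior, quantile normalization or a median shift, normexp (offset 50), no filter or all 8 arrays above background, the authors' table, every probe or the mean over each gene's probes, a minimum change of 2-fold, and omission of each array in turn.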

Additional observations from a re-analysis of the deposited data

Results flagged for a closer look

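In 2 of the 80 groups of 4 arrays examined (40 genes in each group of samples) 1 array lay far from the other 3 by Dixon's criterion, which flags about 1 group in 20 by chance. For Ei24, a protein of the endoplasmic reticulum induced by p53, Hoxa9 array 1 read 1.14 and the other Hoxa9 arrays 0.54 to 0.64. For Bbc3, eGFP array 3 read 2.32 and the other eGFP arrays 2.42 to 2.43, a gap that is small beside the Bbc3 difference of 0.58.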

How the results depend on the processing

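Over the 40 genes and 20 alternatives each, 709 values kept their direction and their side of the threshold, 54 called values were no longer called, 6 became called and 31 changed sign, all of the last in genes not called. A minimum 2-fold change gave 1357 higher and 1125 lower genes over all genes, 3 and 2 among the 40, and 0 and 1 in the Bcl2 family, with 0 caspase or apoptosome genes lower and 0 inhibitors higher. In the Bcl2 family the median shift, the absence of a filter and the slide block each gave 0 higher and 2 lower genes, and normexp gave 2 lower. Normexp also gave 1 higher caspase or apoptosome gene (Casp9), and the mean of a gene's probes and the slide block each left 1 higher inhibitor. Calls of probe pairs numbered 111, 24 with the replicate block and 310 with normexp.

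With the replicate block, which treats equal experiment numbers as pairs, 2303 genes were higher and 2135 lower, and 7 and 5 of the 40; Pmaip1 was the only one of the 13 calls lost. Leaving out each array in turn gave 1580 to 1906 higher and 1293 to 1889 lower genes, 3 to 6 higher and 2 to 5 lower of the 40, 3 to 4 higher p53 targets, 0 to 1 higher and 0 to 3 lower Bcl2 family genes and 0 to 2 higher inhibitors.

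The sign changes were as follows. Quantile normalization gave 0.15 for Mdm2, 0.0226 for Sesn2, 0.16 for Aen and 0.0192 for Bax. Averaging a gene's probes gave 0.0078 for Aen, -0.0207 for Polk and -0.0614 for Bcl2l1. Normexp gave -0.0237 for Polk and -0.0665 for Bcl2l1, and array weights -0.0712 for Polk and -0.0038 for Bcl2l11. With an array left out Mdm2 ranged from -0.14 to 0.14, Sesn2 from -0.15 to 0.0359, Plk3 from -0.0838 to 0.29, Aen from -0.0617 to 0.0381, Ei24 from -0.0514 to 0.26, Polk from -0.13 to 0.23, Bcl2l1 from -0.0492 to 0.22, Bcl2l11 from -0.0333 to 0.17 and Bmf from -0.0888 to 0.17. The cause was not tested. The 2-fold minimum drops smaller changes by construction, and leaving out an array leaves 3 in its group.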
